A study of Mus musculus with 32 samples.

Results

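MPP2 cells carrying 2 copies of the Cxcr4 1013 allele were compared with wild-type MPP2 cells, gene by gene. MPP2 is 1 of 4 subsets of multipotent progenitors (MPP1 to MPP4) that were sorted from mouse bone marrow. The comparison holds every library titled as MPP2 1013/1013 (2 libraries) or MPP2 wild type (3 libraries), 5 of the 32 libraries of the series. The 3 MPP2 +/1013 libraries, with 1 copy of the allele, are set beside them.

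All libraries came from C57BL/6 mice and were made from pools of 3000 sorted cells by full-length cDNA amplification (SMART-Seq v4) and transposon tagmentation (Nextera XT). The groups used here are WT, +/1013 and 1013/1013 MPP2. The labels give no age, sex or animal for any library, and nothing in them ties different libraries to different mice. The p-values thus measure only the spread between these libraries, which may be technical. The 1013/1013 group has 2 libraries, named here 1013/1013 1 and 1013/1013 2.

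CXCR4 is the receptor for the chemokine CXCL12. It signals through inhibitory G proteins, holds hematopoietic stem and progenitor cells in the marrow, and is switched off by phosphorylation of its cytoplasmic tail followed by arrestin binding. The 1013 allele shortens that tail, as in WHIM syndrome, so that the receptor is poorly desensitized. MPP2 is the progenitor subset biased towards megakaryocytes and erythroid cells, and entry of multipotent progenitors into cycle is accompanied by more mitochondrial respiration and protein synthesis.

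Most genes of the sort gates were present in every compared library. Among Kit, Ly6a, Slamf1, Cd48, Flt3 and Il7r, only Kit had no overlap between WT and 1013/1013. Cd34, a surface antigen of progenitors, had 804, 1170 and 906 CPM (counts per 1000000, scaled by TMM) in WT 1, 2 and 3 and 754 and 1180 CPM in 1013/1013 1 and 2. Slamf1, which encodes the CD150 antigen of MPP2, had 18.9, 18.9 and 26 CPM in WT and 19.9 and 22.6 in 1013/1013. The stem-cell factor receptor gene Kit had 207, 205 and 189 CPM in WT but 21.2 in 1013/1013 1, against 176 in 1013/1013 2. Flt3, a receptor of MPP4, had 4.81, 8.14 and 47.7 CPM in WT and 4 and 14 in 1013/1013. Ly6a had 227, 86.4 and 58.1 CPM in WT and 493 and 118 in 1013/1013. The log2 differences of Ly6a (1.3) and Flt3 (-1.16) were as large as that of Kit (-1.03), but their groups overlapped. Cd48 had 123, 566 and 510 CPM in WT and 403 and 862 in 1013/1013. Il7r had 0, 0 and 10.2 CPM in WT and no count in 1013/1013.

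Libraries of the same genotype differed from each other in ways that return below. Total counts of the 8 MPP2 libraries ran from 13016038 (WT 3) to 30982396 (1013/1013 1). WT 3, +/1013 3 and 1013/1013 2, whose library numbers are multiples of 3, held 0.296%, 0.36% and 0.138% of their counts in a list of mature neutrophil genes, and the other 5 held 0.0313% to 0.0384%. The first library of each genotype had high Procr, an endothelial protein C receptor found on stem cells, with 186, 214 and 177 CPM in WT 1, +/1013 1 and 1013/1013 1 against 11.5 to 30.7 CPM in the other 5 libraries. Ddx3y, a Y-linked gene, had 46.2, 0 and 0 CPM in WT and 9.83 and 52.7 in 1013/1013. Xist, an X-linked gene, had 74.3, 160 and 214 CPM in WT and 0 and 63 in 1013/1013. Both 1013/1013 values of Xist were below all WT values, so sex and genotype cannot be fully told apart. At an equal depth, 11728 genes had at least 5 counts in 1013/1013 1, 12889 in 1013/1013 2 and 12741 to 13350 in WT. The +/1013 libraries had 13280, 13586 and 11017, so +/1013 3 was the lowest. TMM factors were 0.871 in 1013/1013 1 and 0.927 in +/1013 3, beside 0.965 to 1.04 in the other MPP2 libraries. The part of these differences in the results was not tested unless a value is given beside a result.

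Mras, the gene of a Ras-family small GTPase, was the 1 gene that passed the test between 1013/1013 and WT. It had 1.34, 3.94 and 6.26 CPM in WT, 8.06, 4.72 and 9.03 CPM in +/1013, and no count in either 1013/1013 library. Every WT and +/1013 library was thus above both 1013/1013 libraries. Against a floor of 3 counts per library, Mras fell at least 35.4-fold (adjusted p = 0.0171, edgeR's quasi-likelihood test with Benjamini-Hochberg adjustment, 2 against 3 libraries). It was also lower than in +/1013 (adjusted p = 0.00618). The other 30 libraries of the series all had Mras counts, from 0.758 to 15.7 CPM. The fall in MPP2 differed from the mean 1013/1013 difference in MPP1, MPP3 and MPP4 (log2 -10.03, SE 1.5, adjusted p = 0.0185 for the interaction), where the log2 differences were 0.16, 0.05 and 0.74. That interaction test called 2 genes (0.0107%), and 5.81% of genes had an unadjusted p under 0.05 in it. Mras is on chromosome 9 at 99385420 to 99437381 (mm10). The call rests on 1013/1013 1, since without that library the adjusted p was 0.691, and it was also not called when only the 8 MPP2 libraries were fitted.

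That 1 call was 0.00535% of the 18676 genes tested, with none higher. Unadjusted p was under 0.05 for 2151 genes (11.5%), of which 1128 were higher (6.04%) and 1023 lower (5.48%). For 2070 genes (11.1%) both 1013/1013 libraries lay above all 3 WT libraries, and for 2134 genes (11.4%) below all 3. These shares of all tested genes are the background for every list count below. The log2 difference was above 0 for 7358 genes (39.4%), and its median over all tested genes was -0.05. Every other MPP2 difference below is given by its values and did not pass the test. Between +/1013 and WT no gene passed, and 899 had an unadjusted p under 0.05. The same 1013/1013 comparison gave 1 gene in MPP1, 0 in MPP3 and 133 in MPP4.

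Cxcr4 mRNA was higher with 2 copies of the allele, although the difference did not pass. Cxcr4 had 29.4, 29.7 and 28.6 CPM in WT, 34.1, 47.1 and 27.7 CPM in +/1013, and 102 and 69.9 CPM in 1013/1013. The 1013/1013 libraries were both above the other 6, and the WT libraries had an SD of 0.586 CPM. The log2 difference from WT was 1.56 (SE 0.74, adjusted p = 0.429), and from +/1013 it was 1.25 (adjusted p = 0.715). Cxcr4 lies on chromosome 1 at 128588199 to 128592293 (mm10), and counts per gene do not show the change in the sequence of the allele.

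Ctse, the gene of cathepsin E, an aspartic protease, lies 3.05 Mb from Cxcr4 and was high with either 1 or 2 copies of the allele. It had 11, 56.7 and 44.1 CPM in WT, 197, 412 and 125 CPM in +/1013, and 128 and 400 CPM in 1013/1013. All 5 mutant libraries were above the 3 WT libraries, and the 2 mutant genotypes overlapped. The log2 difference between 1013/1013 and WT was 2.83 (SE 0.79, adjusted p = 0.18), and between 1013/1013 and +/1013 it was 0.11 (adjusted p = 1). In MPP1, where the WT and 1013/1013 means were 16.6 ± 8.55 and 814 ± 154 CPM (SD, n = 3 and 2), the same gene passed (log2 5.61, adjusted p = 0.0278). Of 98 tested protein-coding genes within 10 Mb of Cxcr4, 12 had both 1013/1013 libraries above WT (12.2%, beside 11.1% of all genes) and 13 had both below (13.3%, beside 11.4%). Their median log2 difference was -0.23.

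**Figure D1:**
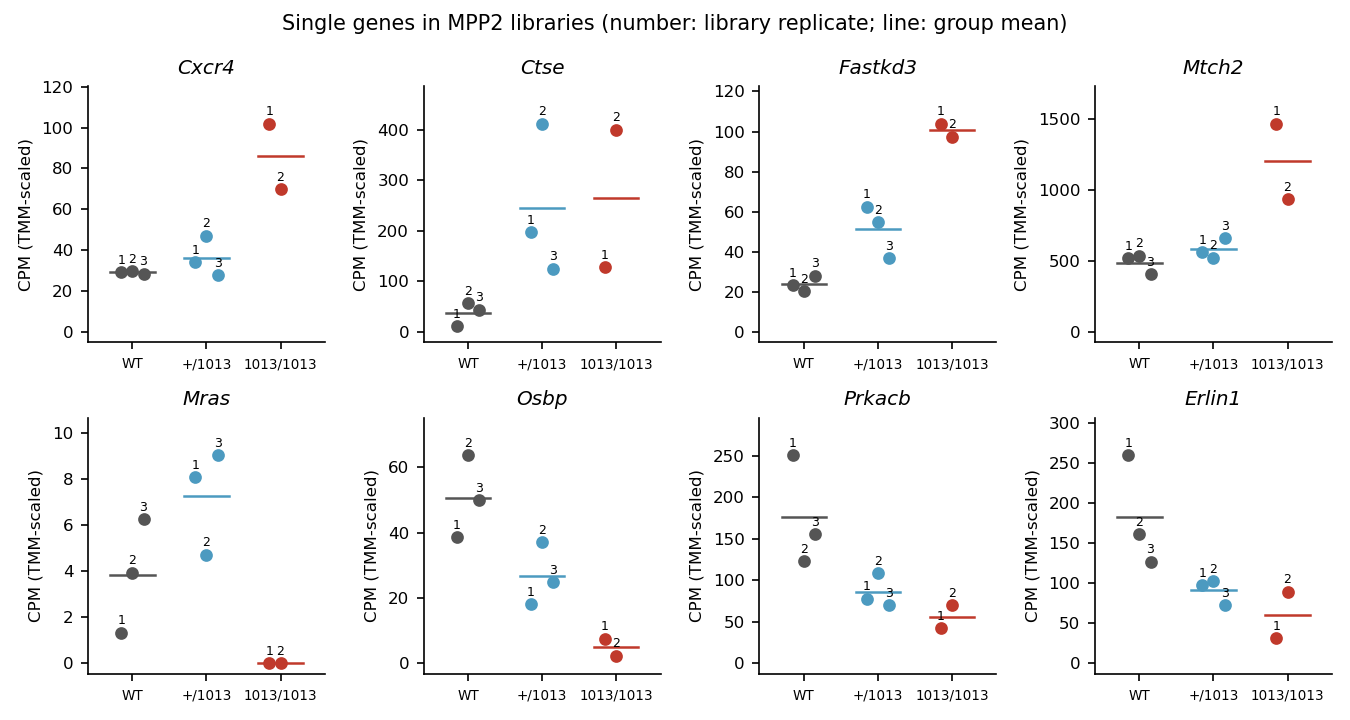
TMM-scaled CPM of 8 genes in the 8 MPP2 libraries, on linear axes. Points are libraries numbered by replicate, and lines are group means; both 1013/1013 points are above all WT points in the top row and below them in the bottom row, and Mras is at 0 in both.

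The 12 genes of lowest p that were higher in both 1013/1013 libraries were led by Fastkd3, and none of them passed. Fastkd3, whose product binds mitochondrial transcripts, had 23.5, 20.3 and 28.1 CPM in WT, 62.5, 54.7 and 36.8 CPM in +/1013 and 104 and 97.4 CPM in 1013/1013 (log2 2.07, SE 0.35, adjusted p = 0.0511). Its +/1013 libraries lay between the other 2 groups without overlap. Mtch2, which inserts proteins into the mitochondrial outer membrane, had 520, 539 and 409 CPM in WT and 1470 and 937 CPM in 1013/1013 (log2 1.3, SE 0.27, adjusted p = 0.0674). Lipt2, an enzyme of mitochondrial lipoate synthesis, had 30.9, 32.3 and 49.3 CPM against 238 and 106 CPM (log2 2.2, adjusted p = 0.093).

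Pigc and Pigf act in synthesis of the glycosylphosphatidylinositol anchor that tethers proteins to the cell surface. Pigc had 68.5, 76.7 and 63.9 CPM in WT and 433 and 205 CPM in 1013/1013 (log2 2.2, adjusted p = 0.0572). Pigf had 9.41, 17.1 and 14.6 CPM against 85.1 and 47.2 CPM (log2 2.27, adjusted p = 0.0615). Sec22a, of a family of vesicle-trafficking proteins, and Caml, which takes part in insertion of tail-anchored proteins, had log2 differences of 1.93 and 1.32 (adjusted p = 0.0674 and 0.0932). The remaining 5 were Prps1l3, Trp53rkb, Oxld1, Tmem60 and Anapc10, a subunit of the anaphase-promoting complex, with log2 differences of 1.5 to 2.53 and adjusted p of 0.0615 to 0.101. Prps1l3 and Trp53rkb have close copies elsewhere in the genome (Prps1 and Trp53rka), so their reads may be shared. Prps1 itself had 730, 607 and 331 CPM in WT and 1150 and 703 CPM in 1013/1013.

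Of the 12 genes of lowest p that were lower in both 1013/1013 libraries, only Mras passed. Osbp, which exchanges cholesterol and phosphoinositide between the endoplasmic reticulum and the Golgi, had 38.7, 63.8 and 49.9 CPM in WT, 18.1, 37.1 and 24.8 CPM in +/1013 and 7.64 and 2.44 CPM in 1013/1013 (log2 -3.33, SE 0.63, adjusted p = 0.0615). The 3 genotypes did not overlap. Erlin1, a cholesterol-binding protein of the endoplasmic reticulum, had 260, 161 and 127 CPM in WT and 31.6 and 89.7 CPM in 1013/1013 (log2 -1.59, adjusted p = 0.0674). Prkacb, a catalytic subunit of the cyclic AMP-dependent kinase, had 251, 123 and 156 CPM against 42.6 and 69.9 CPM (log2 -1.65, adjusted p = 0.0615). Its +/1013 values of 78, 109 and 70.5 CPM were below every WT value.

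Ccng1, the p53 target cyclin G1, had 226, 165 and 178 CPM in WT and 56.9 and 102 CPM in 1013/1013 (log2 -1.25, adjusted p = 0.0913). P2rx7, an ATP-gated channel, had 0.905, 2.08 and 6.19 CPM in WT and no count in 1013/1013, at least 28.1-fold lower against the floor (adjusted p = 0.0615). Serinc5, a membrane protein that restricts retroviruses, had 58, 26 and 9.28 CPM in WT and 0 and 0.141 CPM in 1013/1013. Slc4a7, a bicarbonate transporter, had 23.8, 5.66 and 13.3 CPM in WT, 15.1, 15 and 50.3 CPM in +/1013, and 0.519 and 0.0707 CPM in 1013/1013 (adjusted p = 0.0615 against WT and 0.077 against +/1013). Zfp790, Zc3h7a, Lrrc58 and Tmem57 completed the 12 with Mras, at adjusted p of 0.0615 to 0.0932. Of these 12, Prkacb and Zfp790 passed the same test in MPP4 (log2 -2.28 and -11.83, adjusted p = 0.00073 and 0.0034). In MPP1 and MPP3 neither gene was lower. All 24 genes kept their direction in every alternative fit. They were chosen from the same counts for low p and no overlap between the groups, so this could hardly come out otherwise. DESeq2 called all 24 of them, and limma-voom called 7 of the higher and 5 of the lower. Single libraries decided the calls as well. Without 1013/1013 2, 12 of the higher and 10 of the lower passed, and without +/1013 3, which enters this comparison only through the shared estimate of the spread, 11 and 10 passed.

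Beyond Mras, the comparison with +/1013 was led by Prps1l3 (219, 175 and 96.8 CPM in +/1013 against 625 and 407 CPM, adjusted p = 0.077) and Slc4a7. Ccr7, a receptor that guides lymphoid cells, had 5.83, 3.8 and 3.46 CPM in WT and 3.37, 8.74 and 17.7 CPM in +/1013 and no count in 1013/1013 (adjusted p = 0.157 against WT and 0.315 against +/1013). Adprm, a phosphodiesterase of ADP-ribose, had 47.8, 30 and 9.15 CPM in +/1013 and 191 and 88.8 CPM in 1013/1013. Both genes separated 1013/1013 from the other 2 genotypes. Over all tested genes, both 1013/1013 libraries were above all 3 +/1013 libraries for 1221 (6.54%) and below for 1132 (6.06%). Chordc1 and Ccdc51 were also higher than in +/1013 in both libraries (adjusted p = 0.315 each). These values share the 1013/1013 libraries with the comparison against WT.

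Nuclear genes of the respiratory chain had higher levels in 1013/1013 as a group, without any member passing. Of 76 tested genes, 71 had a log2 difference above 0, and the median was 0.65 beside -0.05 over all genes. For 43 members (56.6%, beside 11.1% of all genes) both 1013/1013 libraries were above all 3 WT libraries, and 1 member, Ndufs1, was below. Complex I had 24 of 37 such members, complex II 2 of 4, complex III with cytochrome c 9 of 10, complex IV 3 of 10 and complex V 5 of 14. The list held 2.21%, 2.44% and 2.61% of all counts in WT, 2.6%, 2.42% and 3.45% in +/1013, and 3.16% and 3.04% in 1013/1013. Both 1013/1013 shares were above the WT shares and below that of +/1013 3. Against +/1013, 9 of the 76 were higher in both 1013/1013 libraries, beside 6.54% of all genes.

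Uqcrb, a small subunit of complex III, had the lowest p of the list. It had 110, 104 and 174 CPM in WT, 128, 97.4 and 204 CPM in +/1013, and 444 and 380 CPM in 1013/1013 (log2 1.67, SE 0.43, adjusted p = 0.161). No other MPP2 library reached the lower of the 1013/1013 values. Atp5c1, the gamma subunit of the ATP synthase rotor, had 1280, 1190 and 1090 CPM in WT and 2700 and 1880 CPM in 1013/1013 (log2 0.95, adjusted p = 0.18). Ndufb9 and Ndufb8, accessory subunits of complex I, had log2 differences of 1.02 and 1.05 (adjusted p = 0.21 each). The 2 catalytic-head subunits of the ATP synthase were close to WT. Atp5b had 4950, 5290 and 3860 CPM in WT and 5040 and 5610 CPM in 1013/1013, and Atp5a1 had 2500, 2480 and 2480 CPM against 2050 and 2890 CPM (log2 0.18 and -0.01).

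Promoters of the list were read from RefSeq (GRCm38.p6), where 64 of the 76 genes had an entry, to show what members of the group share upstream. The core of the site of NRF1, an activator of respiratory genes, was spelled as GCGC, any base (N) and TGCGC in one run and was searched on both strands in the 250 bases before each start. It was found in 14 of the 64 genes (21.9%) and in 983 of 11837 tested genes with an entry (8.3%). The ETS-family core CCGGAAG was found in 18.8% and 14.3%. The windows below belong to members with both 1013/1013 libraries above WT, with the NRF1 match in capitals.
Ndufa11 (complex I, chr17:56717692-56717721, plus strand): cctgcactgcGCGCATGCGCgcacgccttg
Ndufb4 (complex I, chr16:37654371-37654400, minus strand): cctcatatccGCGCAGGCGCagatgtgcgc
Ndufs6 (complex I, chr13:73328479-73328508, minus strand): cgactgctgtGCGCCTGCGCcggcacttgg
Sdhd (complex II, chr9:50603909-50603938, minus strand): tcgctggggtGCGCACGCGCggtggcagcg
Atp5c1 (complex V, chr2:10080430-10080459, minus strand): ctgagctcccGCGCACGCGCactgagtccc
A match describes the letters in the window and does not show binding. Of the genes shown, Sdhd had 1290, 1320 and 1020 CPM in WT and 2670 and 1510 CPM in 1013/1013, and the other 4 had log2 differences of 0.82 (Ndufa11), 0.96 (Ndufb4), 0.87 (Ndufs6) and 0.95 (Atp5c1).

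Of the mitochondrial genome, mt-Co1, a catalytic subunit of complex IV, was higher in both 1013/1013 libraries. It had 7430, 2740 and 3930 CPM in WT, 3710, 4360 and 7520 CPM in +/1013, and 17800 and 11900 CPM in 1013/1013 (log2 1.66, SE 0.44, adjusted p = 0.166). All 10 tested mitochondrial genes had a median of 0.17, which was -0.14 without WT 2, 0.69 without WT 3 and 0.01 without 1013/1013 2, and mt-Co1 alone was above WT in both libraries. mt-Cytb had 1600, 770 and 2140 CPM in WT and 1630 and 2090 CPM in 1013/1013, so the groups overlapped. Of 37 genes of mitochondrial dynamics and biogenesis, 9 (24.3%) were above WT in both libraries and 3 (8.11%) below, with a median of 0.17 (-0.02 without 1013/1013 1). Ssbp1, the single-strand binding protein of mitochondrial DNA, had 94.4, 89.9 and 115 CPM in WT and 246 and 176 CPM in 1013/1013 (log2 1.08, adjusted p = 0.186). The peroxiredoxin Prdx3, the fission factor Fis1 and the channel Vdac3 had log2 differences of 0.65, 0.75 and 0.71 (adjusted p = 0.228, 0.275 and 0.288).

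Genes of cytosolic ribosomal proteins had higher values in the same way. Of 79 tested, 78 had a log2 difference above 0, with a median of 0.61, and 31 (39.2%) had both 1013/1013 libraries above WT with none below. The small subunit had 16 of 31 such members and the large subunit 15 of 46. Rps3, a small-subunit protein at the mRNA entry site, had 1530, 1730 and 1980 CPM in WT, 2290, 1880 and 3800 CPM in +/1013, and 3990 and 2910 CPM in 1013/1013 (log2 0.99, SE 0.3, adjusted p = 0.2). The 1013/1013 libraries were above WT, and +/1013 3 lay between them. Rps13 had a log2 difference of 1.27 and Rpl30 of 1.54 (adjusted p = 0.19 and 0.216). The list held 1.77%, 2.35% and 3.58% of counts in WT, 2.75%, 2.48% and 4.66% in +/1013, and 3.81% and 3.61% in 1013/1013. WT 3 was thus close to both 1013/1013 libraries, and +/1013 3 was above them. Against +/1013, 5 of the 79 were higher in both 1013/1013 libraries, beside 6.54% of all genes. Ribosomal protein genes have many processed copies, and the counting could split their reads.

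Translation of ribosomal protein mRNAs is regulated by mTORC1 through a C at the mRNA start that is followed by a run of pyrimidines. In RefSeq promoters a C followed by at least 4 pyrimidines began the annotated mRNA in 14 of 58 ribosomal genes with an entry (24.1%) and in 361 of 11837 tested genes (3.05%). Only runs exactly at the annotated start were counted, so an entry whose start is misplaced by a few bases is missed. The shares are thus not those of all mRNAs with such a run. The 4 members below, with both 1013/1013 libraries above WT, show it from 10 bases before the start, with the pyrimidine run in capitals.
Rps6 (chr4:86857348-86857377, minus strand): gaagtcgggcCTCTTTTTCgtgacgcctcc
Rps10 (chr17:27635225-27635254, minus strand): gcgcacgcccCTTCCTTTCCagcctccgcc
Rps18 (chr17:33955646-33955675, minus strand): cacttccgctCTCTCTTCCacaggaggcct
Rpl15 (chr14:18270967-18270996, minus strand): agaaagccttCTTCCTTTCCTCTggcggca
The log2 differences of Rps6, Rps10, Rps18 and Rpl15 were 0.49, 0.8, 1.03 and 0.92. These are mRNA levels, and translation was not measured.

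The 2 mutant libraries did not contribute equally to these groups. Between 1013/1013 1 and the mean of WT 1 and WT 2 the median log2 difference was 1.12 for the respiratory list and 1.28 for the ribosomal list. Between 1013/1013 2 and WT 3, the 2 libraries of this comparison numbered in multiples of 3, the medians were 0.12 and -0.06. Over 17 alternative fits the respiratory median ran from 0.46 to 1.12 and the ribosomal median from 0.38 to 1.27, both above 0 in every one. The ribosomal median was 0.38 without WT 1 and 1.17 without WT 3. In MPP1, MPP3 and MPP4 the same genotype comparison gave medians of -0.41, 0.32 and 0.73 (respiratory) and -0.17, 0.42 and 0.86 (ribosomal). WT 3 and 1013/1013 2 also carried the neutrophil genes described above. The part of that difference in the group values was not tested.

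**Figure D2:**
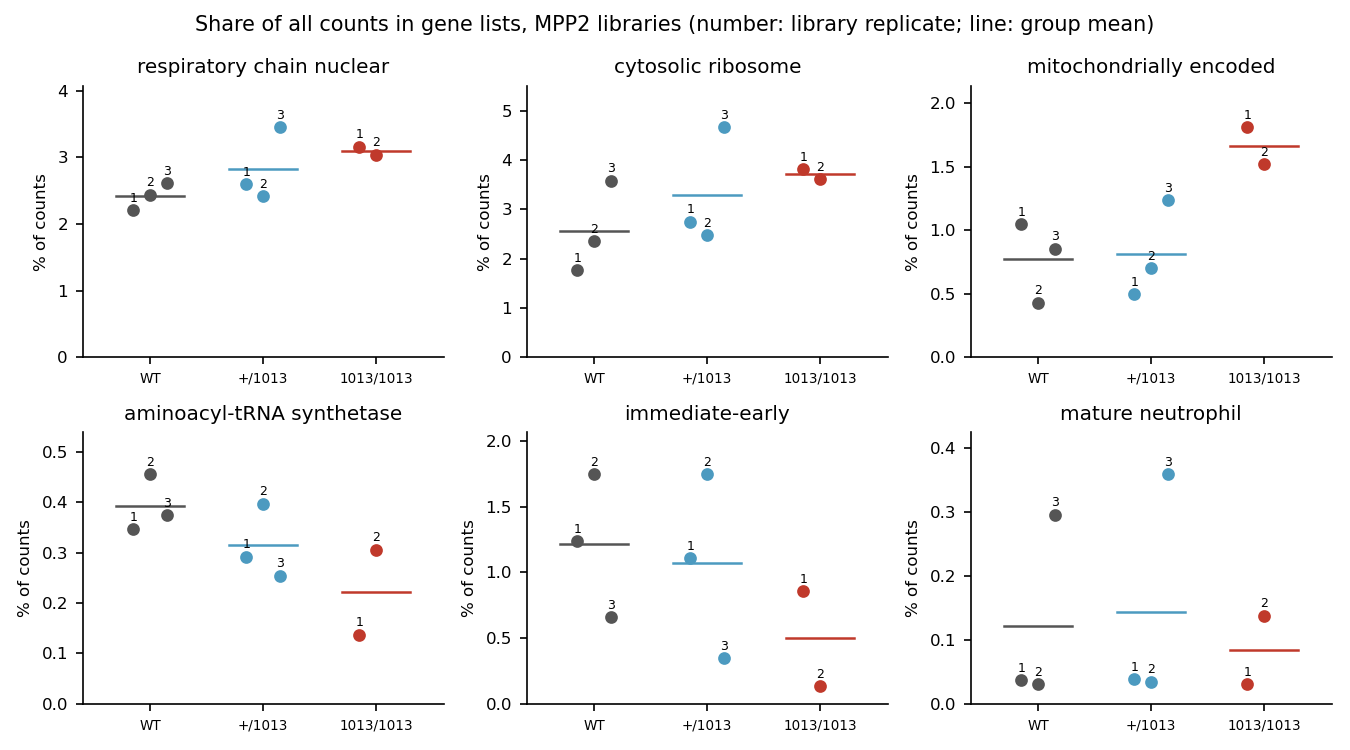
Share of all counts (percent, linear axes from 0) held by 6 gene lists in each MPP2 library. Points are libraries numbered by replicate, and lines are group means; respiratory genes hold 3.16% and 3.04% in 1013/1013 against 2.21% to 2.61% in WT, and neutrophil genes are high in WT 3, +/1013 3 and 1013/1013 2.

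The number of exons in a gene went with its difference. Of genes with a mean of at least 10 CPM, the median log2 difference was 0.54 for 266 genes of 1 exon, 0.39 for 2022 genes of 2 to 5 exons, -0.09 for 4314 genes of 6 to 15 exons and -0.82 for 1477 genes of over 15 exons. The share with both 1013/1013 libraries above WT was 38% in 1-exon genes and 2.57% in genes of over 15 exons, and the share with both below was 3.38% and 33.7%. Between 1013/1013 2 and WT 3 the medians went from 0.26 to -0.33 over the same classes, and between 1013/1013 1 and WT 1 and 2 from 0.84 to -1.49. Of the 12 higher genes named above, Pigc, Prps1l3, Trp53rkb, Oxld1, Lipt2 and Tmem60 have 2 exons. Caml has 4, Anapc10 5, Pigf 6, Fastkd3 and Sec22a 7, and Mtch2 13. Of the 12 lower ones, Lrrc58 has 4 exons, Zfp790 5, Mras and Ccng1 6, Prkacb 10 and Tmem57 11. Serinc5 and Erlin1 have 12, P2rx7 13, Osbp 14, Zc3h7a 23 and Slc4a7 25. Cxcr4 has 2 exons and Ctse 10, in classes with 28.3% and 14.5% of genes above WT in both libraries. The respiratory list has a median of 4 exons and the ribosomal list 5. Of the respiratory members, 30 of 54 with 2 to 5 exons (55.6%) were above WT in both libraries, beside 28.3% of all genes of that class, and 13 of 21 with 6 to 15 exons (61.9%), beside 14.5%. Of 42 ribosomal members with 2 to 5 exons, 11 (26.2%) were above WT in both libraries, near the share of that class (28.3%). Of 37 with 6 to 15 exons, 20 (54.1%) were, beside 14.5% of all genes of that class. With offsets for exon number in the fit the medians were 0.56 (respiratory) and 0.55 (ribosomal).

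**Figure D3:**
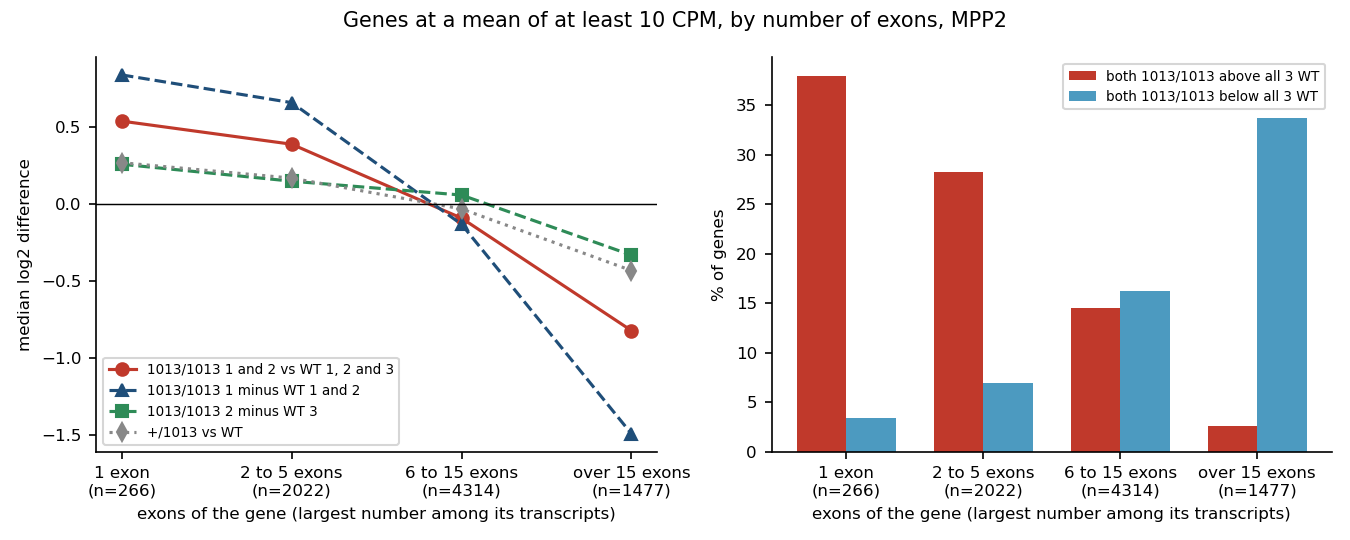
Genes with a mean of at least 10 CPM, grouped by exon number. Left, median log2 difference for the full comparison, for its pairs of libraries and for +/1013; right, percent of genes with both 1013/1013 libraries above or below all 3 WT libraries, which goes from 38% above in 1-exon genes to 33.7% below in genes of over 15 exons.

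Components of mTOR, the growth kinase that promotes ribosome production, went both ways. Of 60 tested genes, 12 (20%) were above WT in both 1013/1013 libraries and 15 (25%) below, with a median of -0.1. Lamtor5 and Lamtor1 belong to the Ragulator complex that anchors mTORC1 to the lysosome. Lamtor5 had 173, 131 and 126 CPM in WT, 220, 178 and 301 CPM in +/1013, and 426 and 230 CPM in 1013/1013 (log2 1.19, SE 0.29, adjusted p = 0.139), and Lamtor1 had a log2 difference of 0.83 (adjusted p = 0.225). The Rag GTPase genes Rraga and Rragb were at 0.95 and 1. Rps6kb1, the ribosomal S6 kinase downstream of mTORC1, had 30.9, 33.3 and 41.3 CPM in WT and 4.6 and 15.6 CPM in 1013/1013 (log2 -1.8, adjusted p = 0.257). Tsc2, which encodes an inhibitor of mTORC1, had 16, 31.8 and 18.6 CPM against 1.48 and 7.81 CPM (log2 -2.25, adjusted p = 0.671). With exon-number offsets the median of the list was 0.26, and it was 0.08 without 1013/1013 1, 0.03 without WT 2 and -0.25 without 1013/1013 2.

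Genes induced by mTORC1 and its partner ATF4 had lower values, among them genes of sterol synthesis. Of 41 tested, 10 (24.4%) were below WT in both 1013/1013 libraries and none above, with a median of -0.85. Sqle, the squalene epoxidase of cholesterol synthesis, had 221, 205 and 199 CPM in WT, 174, 104 and 80.2 CPM in +/1013, and 62.9 and 115 CPM in 1013/1013 (log2 -1.22, SE 0.4, adjusted p = 0.226). All mutant libraries were below all WT libraries. Hmgcs1, of the same pathway, had a log2 difference of -1.13 (adjusted p = 0.355), and the fatty acid synthase gene Fasn -2.22 (adjusted p = 0.367). The median with exon-number offsets was -0.44, and between 1013/1013 2 and WT 3 it was -0.33. Leaving out 1 library gave -0.49 (1013/1013 1), -0.54 (WT 2) and -0.56 (WT 3).

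Aminoacyl-tRNA synthetases, which charge tRNAs for translation, had log2 differences below 0 for 19 of 21 genes, with a median of -0.68. Both 1013/1013 libraries were below WT for 5 (23.8%) and above for none. Dars, the aspartate enzyme, had 1240, 1200 and 995 CPM in WT, 875, 931 and 675 CPM in +/1013, and 518 and 808 CPM in 1013/1013 (log2 -0.79, SE 0.2, adjusted p = 0.158), so that no mutant library reached a WT value. Yars and Vars had log2 differences of -2.13 and -1.89. These genes have a median of 17 exons, and the median of the list was -0.09 with exon-number offsets, -0.21 without 1013/1013 1 and -1.44 without 1013/1013 2.

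In glycolysis and the tricarboxylic acid cycle, 33 of 44 genes were below 0 (median -0.44), with 9 below WT in both libraries (20.5%) and 2 above. Pfkp, a phosphofructokinase, had 85.5, 122 and 74 CPM in WT, 79.8, 105 and 89.6 CPM in +/1013, and 3.23 and 31.9 CPM in 1013/1013 (log2 -2.42, SE 0.66, adjusted p = 0.166). Pdk1, which inhibits entry of pyruvate into the cycle, had a log2 difference of -1.39 (adjusted p = 0.212). Ldha, lactate dehydrogenase, was the most abundant member, with 4870, 5750 and 3800 CPM in WT and 5950 and 5980 CPM in 1013/1013 (log2 0.31, adjusted p = 0.545). The list median was -0.16 with exon-number offsets, -0.21 without 1013/1013 1 and -0.83 without 1013/1013 2.

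**Figure D4:**
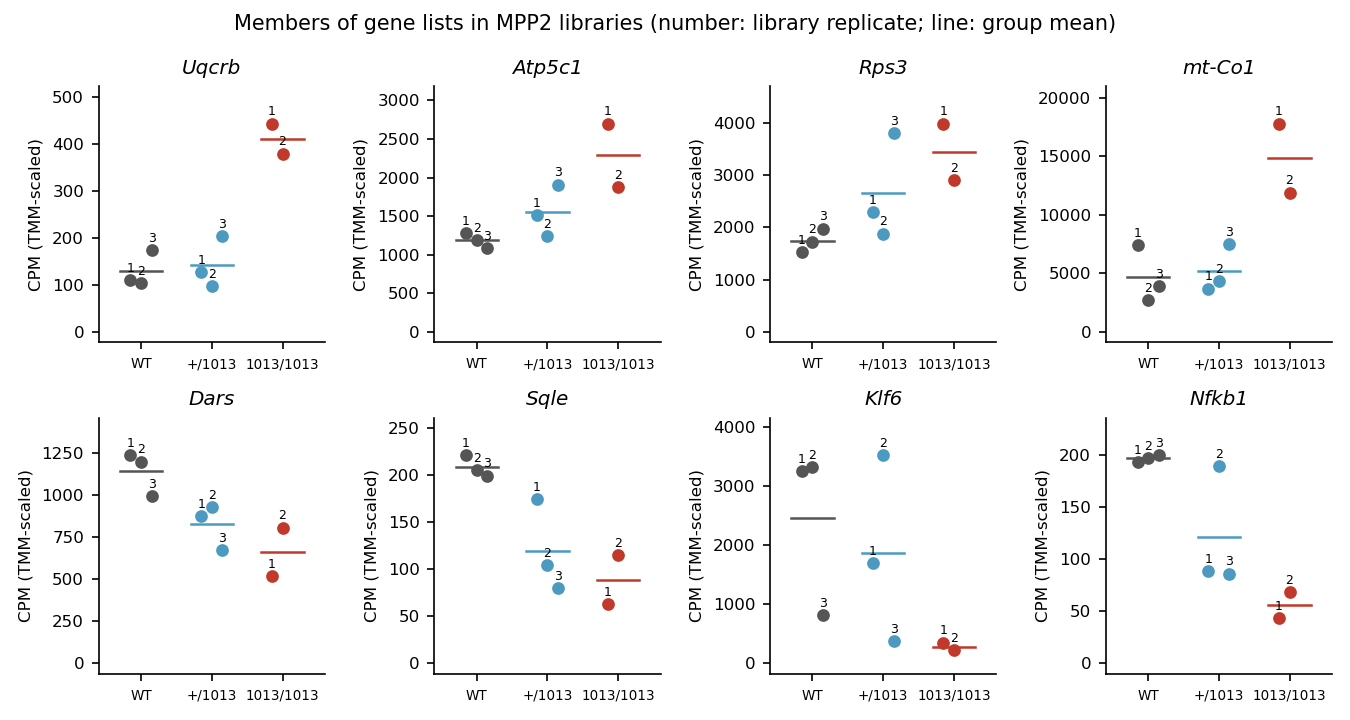
TMM-scaled CPM of 8 members of the gene lists in the 8 MPP2 libraries, on linear axes. Points are libraries numbered by replicate, and lines are group means; both 1013/1013 points are above all WT points in the top row and below them in the bottom row, and Klf6 in WT 3 (820 CPM) is far below WT 1 and 2.

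Genes of DNA replication had members above and below WT. Of 50 genes of G1/S and replication, 13 (26%) were above WT in both 1013/1013 libraries and 3 below, with a median of -0.14. Pcna, the sliding clamp of DNA polymerase, had 351, 439 and 329 CPM in WT, 416, 466 and 534 CPM in +/1013, and 849 and 604 CPM in 1013/1013 (log2 0.96, SE 0.23, adjusted p = 0.126). The other 6 libraries were all below both 1013/1013 values. Rfc4, which loads the clamp, and the thymidine kinase Tk1 had log2 differences of 0.87 and 0.88 (adjusted p = 0.27 each). The helicase gene Mcm3 had 212, 642 and 367 CPM in WT and 34.8 and 215 CPM in 1013/1013 (log2 -1.71). The median of the list was 0.21 with exon-number offsets, 0.14 without 1013/1013 1, 0.15 without WT 2, -0.3 without WT 1 and -0.45 without 1013/1013 2, so its sign turned.

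Of 50 genes of G2/M and mitosis, 36 were below 0 (median -0.84), with 9 (18%) below WT in both libraries and 4 above. The spindle checkpoint genes Bub3 and Mad2l1 were above WT in both libraries. Mad2l1 had 421, 491 and 480 CPM in WT and 682 and 978 CPM in 1013/1013 (log2 0.84, adjusted p = 0.265). Foxm1, a transcription factor of mitotic genes, had 9.12, 6.79 and 8.25 CPM in WT and no count in 1013/1013 (adjusted p = 0.345). Members of over 15 exons had a median of -1.17, with 7 of 26 (26.9%) below WT in both libraries, beside -0.82 and 33.7% for all genes of that class, and members of 6 to 15 exons had a median of -0.12. The median of all 50 was -0.3 with exon-number offsets. It was -0.13 without 1013/1013 1, -2.19 without 1013/1013 2, -0.34 without WT 3 and -0.52 without WT 2.

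Regulators of quiescence were mainly below WT. Of 30 genes 22 were below 0 (median -0.91), 11 (36.7%) were below WT in both 1013/1013 libraries and 3 above. Cdkn1a, the p21 inhibitor of cyclin-dependent kinases, had 91.2, 58.9 and 35.1 CPM in WT, 60.6, 90.8 and 23.9 CPM in +/1013, and 22.7 and 12.5 CPM in 1013/1013 (log2 -1.81, SE 0.71, adjusted p = 0.341). E2f4, a repressor of cell cycle genes in resting cells, had 50.8, 74 and 49.7 CPM against 15.9 and 25 CPM (log2 -1.51, adjusted p = 0.221). Cdk4, a kinase of G1 entry, had 1260, 1590 and 1210 CPM in WT and 2180 and 1620 CPM in 1013/1013 (log2 0.49). Between 1013/1013 2 and WT 3 the median of the list was -0.69, and without 1013/1013 2 it was -1.47. Klf6, Egr1 and Nr4a1 of this list are also immediate-early genes.

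Immediate-early genes, induced within minutes by growth factors or stress, had mostly lower values. Of 30 genes 28 were below 0 (median -1.54), and 12 (40%) were below WT in both 1013/1013 libraries, beside 11.4% of all genes. Klf6 had 3260, 3330 and 820 CPM in WT, 1700, 3530 and 382 CPM in +/1013, and 350 and 225 CPM in 1013/1013 (log2 -3.1, SE 1.12, adjusted p = 0.288). Atf3 had 262, 431 and 29 CPM in WT and 2.41 and 1.24 CPM in 1013/1013 (log2 -7.04, adjusted p = 0.333). The third library of WT and of +/1013 was low for both genes. Fos did not follow, with 1680, 3200 and 949 CPM in WT and 1950 and 81.8 CPM in 1013/1013, and Dusp1 had 4900 CPM in 1013/1013 1. The list held 1.24%, 1.75% and 0.658% of counts in WT and 0.86% and 0.137% in 1013/1013, so the groups overlapped in the sum. Its median was -1.75 between 1013/1013 2 and WT 3 and -1.35 between 1013/1013 1 and WT 1 and 2. These genes have a median of 3.5 exons, and exon-number offsets gave a median of -1.6, while leaving out 1013/1013 1 gave -2.47.

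In the NF-kB and interferon list, 9 of 39 genes (23.1%) were below WT in both libraries and 3 above, with a median of -0.36 (-0.24 without WT 2 and -0.59 without 1013/1013 2). Nfkb1, the precursor of the p50 subunit, had 193, 197 and 200 CPM in WT, 88.7, 189 and 86.2 CPM in +/1013, and 43.8 and 68.7 CPM in 1013/1013 (log2 -1.81, SE 0.44, adjusted p = 0.151). Rel had 34.6, 9.02 and 25 CPM in WT and 3.15 and 2.65 CPM in 1013/1013 (log2 -2.98, adjusted p = 0.18). Both subunits separated 1013/1013 from WT. Ifi47, an interferon-induced GTPase, went the other way, with 349, 596 and 492 CPM in WT and 1870 and 916 CPM in 1013/1013 (log2 1.54, adjusted p = 0.157). Of 20 heat shock chaperones 2 (10%, beside 11.4% of all genes) were below WT in both libraries and 1 was above. Of the same 20, 19 were below 0 with a median of -0.93, which was -0.59 without 1013/1013 1 and -1.44 without 1013/1013 2. Of 39 p53 targets and apoptosis genes 9 (23.1%) were below WT in both libraries and 6 (15.4%) above, with Ei24 at 1.07. The shares over all genes were 11.4% and 11.1%.

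Around the receptor itself, 25 of 34 genes of CXCR4 signalling were below 0 (median -0.69). For 12 (35.3%) both 1013/1013 libraries were below WT, and for 4, Cxcr4 among them, both were above. Gnai2, the inhibitory G protein subunit through which CXCR4 signals, had 225, 428 and 316 CPM in WT, 233, 407 and 287 CPM in +/1013, and 97.6 and 188 CPM in 1013/1013 (log2 -1.18, SE 0.37, adjusted p = 0.212). Grk6, a kinase that phosphorylates the receptor tail, had 89.1, 127 and 60.3 CPM in WT and 18.5 and 44.7 CPM in 1013/1013 (log2 -1.55, adjusted p = 0.256). Both genes separated the 2 groups. Rgs2, which speeds G protein inactivation, was at -1.54, and Rgs18, of the same family, at 0.83. Gnai3 and Rac1 were close to WT (log2 -0.21 and 0.01). The median was -0.4 between 1013/1013 2 and WT 3 and -0.19 with exon-number offsets, and -0.43 without 1013/1013 1.

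Among receptors and adhesion molecules of the niche, 9 of 42 integrin and adhesion genes were below WT in both libraries (21.4%) and 2 above (4.76%). The shares over all genes were 11.4% and 11.1%. These genes have a median of 15 exons. Their median log2 difference was -0.59, but 0 with exon-number offsets and 0 between 1013/1013 2 and WT 3. Itgb1, the beta-1 integrin chain, had 311, 304 and 307 CPM in WT and 67.9 and 221 CPM in 1013/1013 (log2 -1.09, SE 0.42, adjusted p = 0.323). Fermt3, the integrin activator kindlin-3, was at -1.44 and the adhesion molecule Icam2 at 0.76 (adjusted p = 0.343 and 0.191). P2ry14, a receptor for UDP-glucose on progenitors, had 61.8, 70.7 and 68.7 CPM in WT and 175 and 119 CPM in 1013/1013 (log2 1.13, adjusted p = 0.237). Of 35 cytokine receptor genes 9 (25.7%) were below WT in both libraries and 3 (8.57%) above. Their median was -1, and it was -0.34 without 1013/1013 1 and -0.57 with exon-number offsets. Ifnar1, a chain of the type I interferon receptor, had 38.3, 43.6 and 60.7 CPM against 6.64 and 15.3 CPM (log2 -2.11, adjusted p = 0.186).

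Lineage genes did not separate the genotypes as groups. Of 37 erythroid genes 3 were above WT in both libraries, Ctse included, and 3 below (8.11% each). The erythropoietin receptor gene Epor had 40.6, 26.6 and 39.9 CPM in WT and 89.4 and 70.8 CPM in 1013/1013 (log2 1.17, adjusted p = 0.811). Of 35 megakaryocyte genes 2 were above and 2 below (5.71% each), and the platelet integrin gene Itga2b overlapped, with 111, 441 and 322 CPM in WT and 45 and 264 CPM in 1013/1013. Gata1, the erythroid and megakaryocytic factor, had 109, 365 and 257 CPM against 121 and 250 CPM. In each genotype the first library had the lowest Gata1.

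Long-term stem cell genes were below WT in both libraries for 11 of 40 (27.5%), with a median of -0.56. Angpt1, a ligand of the Tie2 receptor, had 256, 217 and 264 CPM in WT and 28.5 and 174 CPM in 1013/1013 (log2 -1.28, adjusted p = 0.394), and Eng, an accessory receptor for TGF-beta, was at -2.55. Hoxa9, a homeobox gene of stem cells, had 49.2, 32.8 and 38.5 CPM against 94.7 and 50 CPM (log2 0.85, adjusted p = 0.368). Of 36 granulocyte-monocyte genes 5 (13.9%) were below WT in both libraries, near the 11.4% of all genes. Csf3r, the G-CSF receptor, was among them with 12.8, 53 and 46.2 CPM against 0 and 10.7 CPM. The median of these 36 genes was -1.27, but its direction turned without WT 3 (0.5), with the replicate number as a block (0.11) and with a term for libraries under 1 CPM of Ddx3y (0.2). It was -0.63 without 1013/1013 1 and -2.99 without 1013/1013 2. Of 39 lymphoid genes 3 (7.69%) were below in both libraries and 2 (5.13%) above.

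**Figure D5:**
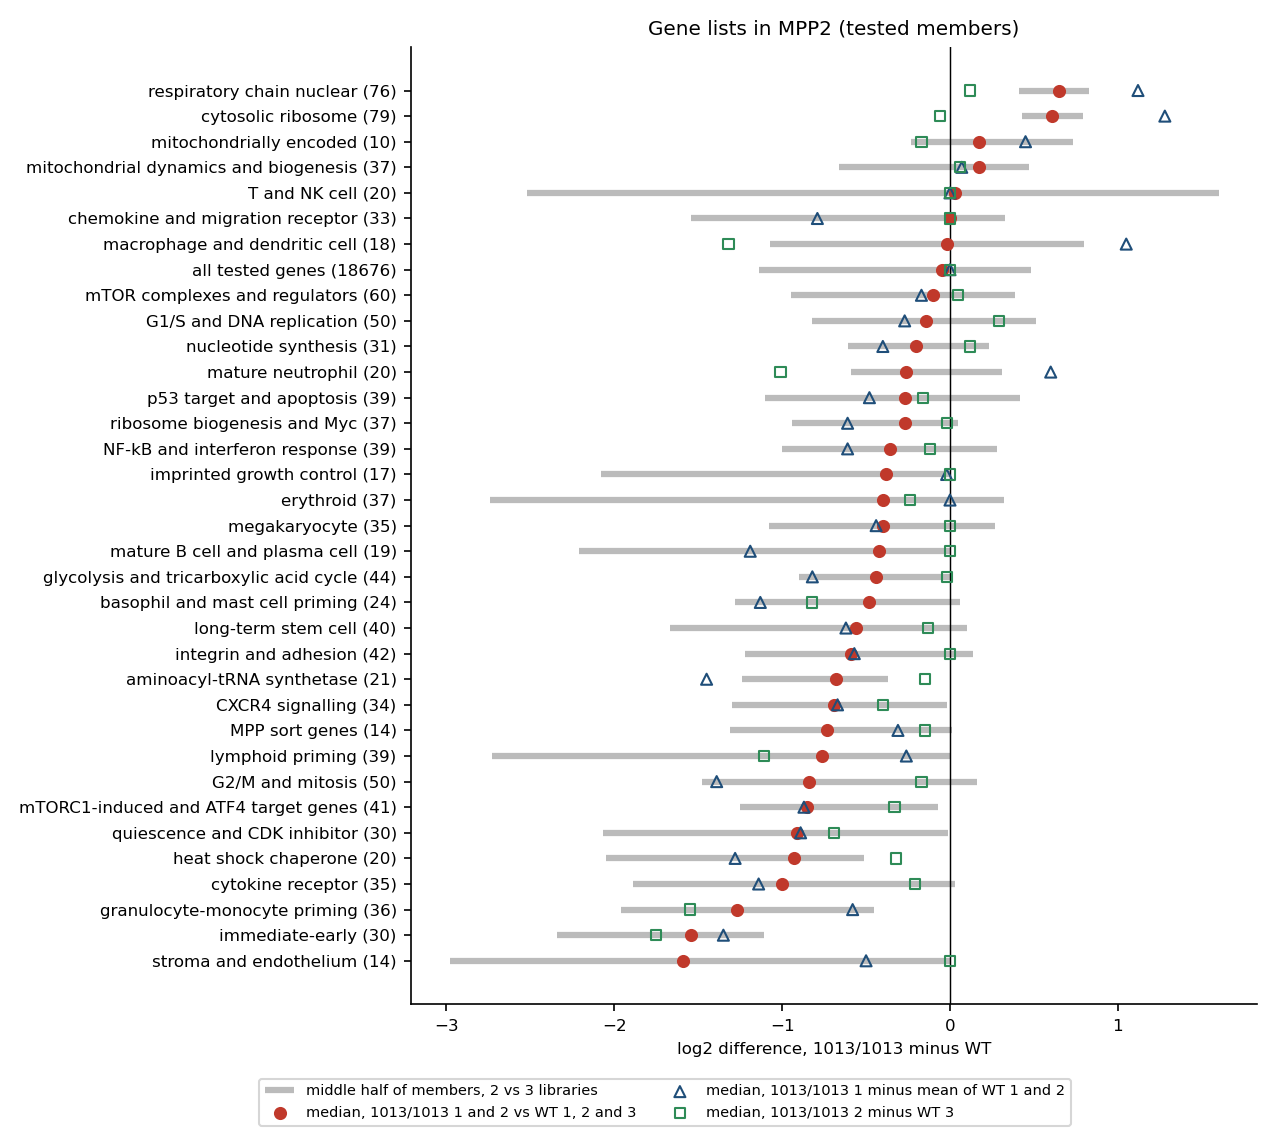
Log2 difference between 1013/1013 and WT by gene list, with tested members in brackets. Red points are medians and grey bars run from the lower to the upper quartile of members; open symbols are medians within 2 sets of libraries, and the respiratory and ribosomal lists are highest at 0.65 and 0.61, with their 1013/1013 2 minus WT 3 medians near 0.

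Markers of other cells were checked beside these groups. Of 20 tested neutrophil genes 1, Padi4, was below WT in both libraries and none was above. S100a8 had 0.651, 0.913 and 394 CPM in WT and 22.1 and 209 CPM in 1013/1013, and Chil3 was at 0 in WT 1 and 2 and at 380 CPM in WT 3. The hemoglobin list held 0.00308%, 0.00281% and 0.146% of counts in WT and 0.0395% and 0.00925% in 1013/1013. Other lists were low in all libraries or did not separate the groups. The T and NK cell list held 0.00369% to 0.00749% in WT and 0.0061% and 0.00783% in 1013/1013. The mature B cell and plasma cell list held 0.0349%, 0.186% and 0.22% of counts in WT and 0.124% and 0.078% in 1013/1013. In these bulk samples, fewer cells of a type and less RNA per cell cannot be told apart.

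Genes seen in 1 genotype but absent from the other were also counted. Of genes with a mean of at least 1 CPM in WT, 513, Mras among them, had no count in either 1013/1013 library. Of these, 132 also had none in +/1013. In the other direction, 162 genes with a mean of at least 1 CPM in 1013/1013 had no count in any of the 3 WT libraries. Absence from 3 libraries is a stricter condition than absence from 2. Of genes with a mean of at least 5 CPM in WT, 523 had no count in 1013/1013 1, 119 in 1013/1013 2 and 704 in +/1013 3, beside 70 to 159 in the other 5 MPP2 libraries. These numbers were unequal between the mutant libraries, and Mras had no count in either 1013/1013 library but was counted in +/1013 3 at 9.03 CPM.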

How the data were processed

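RNA levels were taken from the deposited raw counts per gene, 30644 Ensembl genes in 32 libraries, named as raw per the file headers. Per the submitters' processing notes the authors used STAR, HTSeq and mm10; versions and strand setting are not given in the sources used here, so reads of genes that overlap on opposite strands may be mixed. The other 64 per-sample columns are, per the file headers, values the authors normalized, with and without division by the median transcript length; this deposited signal was not used.

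Counts were fitted with edgeR 4.0.16 (R 4.3.3), 1 coefficient for each of 12 groups, after filterByExpr (18676 genes kept, 3883 without any count), with TMM scaling and trended dispersion (median 1.23). The quasi-likelihood F-test gave p-values, adjusted by Benjamini-Hochberg over all tested genes, threshold 0.05; SE is the log2 difference over the square root of F. With no UMIs, the floor of 3 counts per library covers counting error only. On simulated data for 1013/1013 against WT in MPP2 (18676 genes), 5.97%, 29.9% and 53% of planted 2-fold, 4-fold and 8-fold changes were recovered, with 1 false call among 60.

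The named genes are Cxcr4, Ctse, the 12 higher and 12 lower genes of lowest p without overlap (mean at least 1 CPM, no predicted or sex-linked genes), and the members of each list with lowest p or highest level. Others, such as Cd34, Prps1, Ddx3y, Ndufs1, Ndufa11, Rps6, Rraga and Tsc2, were chosen after their values were seen. The comparison and the 35 gene lists were chosen with earlier results of these data known. Exon numbers come from GENCODE M21. The alternatives tried were RLE scaling, no filter, DESeq2 1.42.0, limma-voom 3.58.1, other sample sets, blocks and terms, and offsets for length or exon number.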

Additional observations from a re-analysis of the deposited data

Results flagged for a closer look

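The 1013/1013 difference in MPP2 departed from its mean over MPP1, MPP3 and MPP4 for 2 of 18676 genes (0.0107%) by the interaction test, and 1085 genes (5.81%) had an unadjusted p under 0.05. Mras had an interaction of -10.03 on the log2 scale (adjusted p = 0.0185), from no count in both MPP2 1013/1013 libraries beside means of 7.58 ± 1.79, 9.79 ± 2.24 and 9.57 ± 7.42 CPM (SD, n = 2 each) in 1013/1013 MPP1, MPP3 and MPP4. Nr2c1, an orphan nuclear receptor gene, had an interaction of 4.65 (adjusted p = 0.0229). In MPP2 it had 15.3, 9.31 and 17.3 CPM in WT and 13.9 and 17.1 CPM in 1013/1013, and its departure lies in MPP4, where WT had 22.1 ± 5.86 CPM (n = 3) and neither 1013/1013 library had a count. No other group difference was flagged.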

How the results depend on the processing

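For 1013/1013 against WT, 1 gene passed in the reported fit. The count was 1110 with DESeq2 (351 higher, 759 lower), 39 with limma-voom, 0 with the 8 MPP2 libraries alone, 960 without the 8 libraries numbered in multiples of 3, and 5 with a term for libraries under 1 CPM of Ddx3y (Fastkd3, Pigc and Snrpert higher, Prkacb and Mras lower). Leaving out 1 library gave 1 to 974, with 974 without 1013/1013 2 and, without 1013/1013 1, Slc38a7 in place of Mras. For 1013/1013 against +/1013, 1 gene passed. The count was 588 with DESeq2, 14 with limma-voom, 0 with the MPP2 libraries alone, 607 without the libraries numbered in multiples of 3 and 4 with a block for library position (added after seeing the data), and 1 to 426 with a library left out, 426 without 1013/1013 2. For the interaction, 2 genes passed. The count was 406 with DESeq2, 388 without the libraries numbered in multiples of 3, and 1 with no filter, limma-voom or exon-number offsets (added after seeing the data), and 0 to 260 with a library left out, 0 without 1013/1013 1 and 260 without 1013/1013 2. Mras was called against WT in 15 of 17 settings. Only MPP2 libraries of the groups in each comparison were left out for these ranges and settings. Leaving out +/1013 3 also changed the calls against WT, as given for the named genes above. Where 1 library of 1013/1013 remains, it is assumed to vary like the other groups. The causes were not tested.

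With a replicate block the counts were 3 against WT (Mras, Dolk and Chil3), 2 against +/1013 and 4 for the interaction. WT and 1013/1013 share 2 numbers, and deviations from the group means correlated at 0.309 and 0.164 for equal numbers. WT 3 with 1013/1013 2, of unequal numbers, was at 0.231. With 2 libraries in 1013/1013 the deviations mirror each other, so a positive value for 1 forces the same negative value for the other. These values thus cannot show pairing by number. For WT and +/1013, which share 3 numbers, deviations correlated at 0.348, 0.323 and 0.24 for equal numbers. For unequal ones the values ran from -0.294 to -0.093. The labels do not say that the numbers pair libraries. With the block the median difference from WT went from -1.27 to 0.11 for granulocyte-monocyte genes, from -0.4 to 0.1 for erythroid genes, from -0.48 to 0.8 for basophil and mast cell genes, from -0.26 to 6.22 for mature neutrophil genes and from -2.06 to 2.16 for hemoglobin genes. With 2 libraries in 1013/1013, differences of 2-fold were mostly beyond detection.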

Other observations

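Outside the groups described above, factors of ribosome production had 25 of 37 log2 differences below 0. Of the 37, 8 (21.6%) were below WT in both 1013/1013 libraries and 3 (8.11%) above. The shares over all genes were 11.4% and 11.1%. The nucleolar protein gene Ncl had 48.2, 203 and 106 CPM in WT and 28.9 and 34.3 CPM in 1013/1013 (log2 -1.91, adjusted p = 0.394, edgeR's quasi-likelihood test). Polr1c, a subunit shared by RNA polymerases I and III, had 94.2, 97.4 and 107 CPM in WT and 210 and 165 CPM in 1013/1013 (log2 0.91, adjusted p = 0.21), while Polr1a, the largest subunit of polymerase I, was at -5.59 (adjusted p = 0.262). With exon-number offsets the median of this list was -0.05.

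Of 33 tested chemokine and migration receptor genes, 4 were above WT in both libraries and 4 below (12.1% each, close to the 11.1% and 11.4% of all tested genes). The sphingosine-1-phosphate receptor genes S1pr4 and S1pr2 were above, S1pr4 with 35.8, 32.6 and 37 CPM in WT, 59.2, 39.1 and 65.6 CPM in +/1013, and 73.2 and 41.7 CPM in 1013/1013 (log2 0.71, adjusted p = 0.433). Ackr3, the atypical receptor that also binds CXCL12, had 0.398, 3.58 and 1.4 CPM in WT and no count in any of the 5 mutant libraries (adjusted p = 0.438 for 1013/1013 against WT). Among heat shock genes, Hspa4l, which encodes an HSP110-family chaperone, had 24, 39 and 16.3 CPM in WT and 0.0371 and 1.34 CPM in 1013/1013 (log2 -5.25, adjusted p = 0.176). All of these values missed the threshold.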
